A study of Mus musculus with 6 samples.

Results

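The simple keratins *Krt7*, *Krt8*, *Krt18*, *Krt19* and *Krt20* were described in mammary epithelial cells (MEC) and in tumor cell lines that lack JNK (MEKO). They were chosen by symbol, and each of the 5 genes matched 1 of the 37755 entries of the expression table. Keratins are the intermediate filament proteins of epithelial cells, and a filament forms only when a type II keratin (here *Krt7* and *Krt8*) pairs with a type I keratin (here *Krt18*, *Krt19* and *Krt20*) in equal amounts. In the mammary gland the milk-facing luminal cells are known for Krt8, Krt18, Krt19 and Krt7, while the contractile basal cells that surround them are known for Krt5 and Krt14. Krt20 is best known from gut, urothelium and Merkel cells.

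RNA-seq libraries of 6 mouse (C57/Bl6J) cultures were compared, 3 of MEC and 3 of MEKO. Each MEC library came from a separate primary culture of cells that carried Wap-Cre and had intact JNK genes, pooled from 3 to 5 virgin females aged 10 to 12 weeks and grown on collagen I with serum, EGF and insulin. The MEKO libraries came from 3 lines (199, 233 and 336), 1 library each, derived from tumors of mice in which Wap-Cre deleted the JNK genes *Mapk8* and *Mapk9*. Wap-Cre is driven by a milk protein promoter that is active in luminal cells in pregnancy and lactation. By the study, the tumor mice were parous and were followed for tumors after weaning, so they were also older than the virgin MEC donors. The lines were passaged 2 times on collagen I and then kept on plain dishes in medium with serum alone. Genotype, tumor origin, parity, age and culture therefore cannot be told apart. The labels call the lines adenosquamous, a tumor type with glandular and squamous (epidermis-like) parts. In the study's tumor records, the tumor of mouse 199 is an adenosquamous carcinoma and that of mouse 336 an adenocarcinoma, and mouse 233 has an entry of each kind.

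*Mapk8*, the first targeted gene, was at 19.2 to 25.1 FPKM (a fragment level scaled to transcript length and library size) in MEC and at 5.93, 3.12 and 1.37 FPKM in lines 199, 233 and 336. *Mapk9*, the other, was at 21.5 to 24.4 FPKM in MEC and at 7.62, 3.15 and 3.07 FPKM in the same lines. All 6 libraries held the epithelial genes *Epcam* (519 to 549 FPKM in MEC and 128 to 252 FPKM in MEKO) and *Cdh1* (259 to 319 FPKM and 71.1 to 104 FPKM). Line 199 stood apart from the other lines. Its 8 fibroblast markers summed to 1111 FPKM, against 118 to 207 FPKM in MEC and 2.43 and 4.23 FPKM in lines 233 and 336, with *Col1a1* at 599.7 FPKM in line 199 and at 1.08 and 0.566 FPKM in the other two. The collagens *Col1a1*, *Col1a2* (408 FPKM) and *Col3a1* (71.5 FPKM) made up most of the sum in line 199. The other fibroblast markers went both ways in line 199. Lower there than in MEC were *Dcn* (0.311 FPKM against 3.29 to 6.62 FPKM), *Lum* (0.0264 FPKM against 0.507 to 1.28 FPKM) and *Thy1* (11.1 FPKM against 14.3 to 19.2 FPKM). Higher there were *Pdgfrb* (19.0 FPKM against 3.11 to 11.6 FPKM) and *Pdgfra* (1.31 FPKM against 0.686 to 0.949 FPKM). The comparisons of each simple keratin are therefore also given without line 199.

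*Krt8* and *Krt18* lie side by side on chromosome 15 (GRCm38, GENCODE M21), 23697 bases apart with no annotated gene between them. *Krt8* (chr15:101996698-102004482) is read from the minus strand and has 9 exons, and *Krt18* (chr15:102028180-102032027) is read from the plus strand and has 7 exons. *Krt18* is a type I gene that sits at the end of the type II cluster, whereas *Krt7* (chr15:101411043-101430313, plus strand, 9 exons) is an ordinary member of that cluster. *Krt19* (chr11:100140810-100148665, minus strand, 6 exons) and *Krt20* (chr11:99428403-99438150, minus strand, 8 exons) lie in the type I cluster on chromosome 11. Upstream sequence of the *Krt8* and *Krt18* pair is shown from RefSeq (GRCm38.p6), since these partners carried most of the simple keratin mRNA. Each stretch is the part of the 250 bases before the RefSeq start that lies outside every GENCODE exon, written 5′ to 3′ on the gene's own strand, with E-boxes (CANNTG) and ETS cores (GGAA, on either strand) in capitals.
Krt8, chr15:102004483-102004592, minus strand, 110 bases: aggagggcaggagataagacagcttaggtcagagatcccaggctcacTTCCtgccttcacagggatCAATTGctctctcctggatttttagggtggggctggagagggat
Krt18, chr15:102027966-102028179, plus strand, 214 bases: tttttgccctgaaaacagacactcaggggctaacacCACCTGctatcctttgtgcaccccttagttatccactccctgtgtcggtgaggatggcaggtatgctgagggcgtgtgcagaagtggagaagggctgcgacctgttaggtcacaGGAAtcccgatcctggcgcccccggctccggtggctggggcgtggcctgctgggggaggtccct

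Over the full 250 bases, *Krt8* held 2 E-boxes and 3 ETS cores, and *Krt18* held 1 of each, motifs found in 66% and 93.4% of the 27025 RefSeq promoters. The AP-1 core TGANTCA, the site of Jun and Fos dimers, was in 6.87% of promoters and in none of the 4 windows found for *Krt7*, *Krt8*, *Krt18* and *Krt20*. The TATA box TATAAA was in 13% of promoters and, of these 4, in *Krt20*. The GC box GGGCGG was in 32.9% of promoters and occurred 4 times in the *Krt7* window. That window begins at chr15:101412153, inside the GENCODE span of *Krt7*. Its longest stretch outside GENCODE exons, 39 bases, held none of the 4. Both strands were searched and no searched motif contains another.

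MEC were rich in simple keratin mRNA, and the MEKO lines held less of it. The 5 genes summed to 7711, 9368 and 5286 FPKM in MEC 1, 2 and 3 and to 631, 2802 and 1500 FPKM in lines 199, 233 and 336. Every line was below every MEC library, with group means of 7455 ± 2053 and 1644 ± 1092 FPKM (SD, n = 3 each). A two-sided exact permutation test gave p = 0.1, the smallest that 3 against 3 allows. Of the 5 genes, *Krt8* and *Krt19* were called lower in MEKO and none was called higher, where called means an adjusted p under 0.05 (limma on log2(FPKM + 1), Benjamini-Hochberg over 12461 entries) and a log2 fold change beyond 0.75. Over all tested entries, 9.9% were called, 7.26% lower and 2.64% higher. In 3 of the 5 genes (*Krt8*, *Krt18* and *Krt19*) every line was below every MEC library, a pattern seen in 18.7% of all tested entries. Without line 199 the simple keratins called lower were *Krt8*, *Krt18* and *Krt19*, 3 of 5 against 11.2% of all tested entries. *Krt19* alone was called without MEC 1 (1.7% of all tested entries lower) and without MEC 2 (1.98%). In bulk RNA, fewer cells that express a gene and less RNA per cell cannot be told apart.

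**Figure D1:**
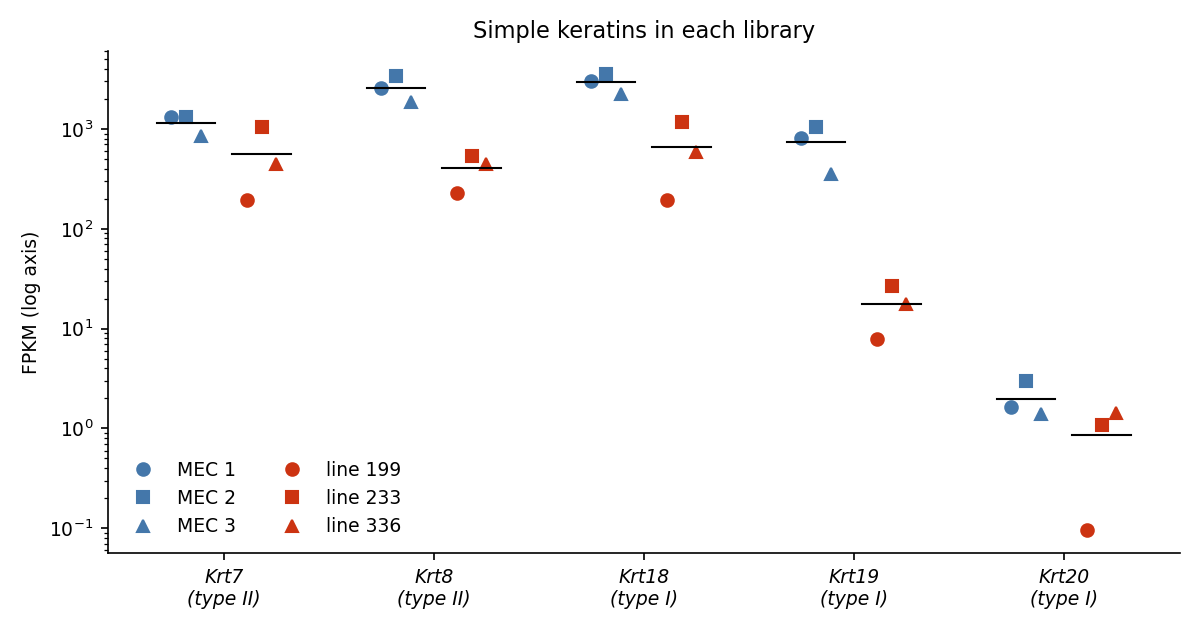
Level of each simple keratin in each library, in FPKM on a log axis, with MEC in blue, MEKO lines in red and the mean of each group as a black line (n = 3 each). The groups do not overlap for Krt8, Krt18 and Krt19, they overlap for Krt7 and Krt20, and line 199 is the lowest library for all 5 genes.

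Among type II genes, *Krt8*, the constant partner in simple epithelial filaments, was at 2547, 3406 and 1844 FPKM in MEC 1, 2 and 3 and at 230.1, 539 and 447 FPKM in lines 199, 233 and 336. All lines lay below all MEC libraries, at 8.85%, 20.7% and 17.2% of the MEC mean. The mean was 2599 ± 782 FPKM in MEC and 405 ± 159 FPKM in MEKO (SD, n = 3 each), which is 6.41-fold lower, and the log2 fold change was -2.72 (SE 0.37, limma adjusted p = 0.0106). By level, *Krt8* ranked 7 to 19 among all entries in MEC and 139 to 325 in MEKO. The call was lost without MEC 1 (log2 fold change -2.71, limma adjusted p = 0.0561) and without MEC 2 (-2.50, limma adjusted p = 0.0528), and it held without line 199 (-2.36, limma adjusted p = 0.00656).

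*Krt7*, the other type II gene and a keratin of ducts and glands, was at 1318, 1309 and 844 FPKM in MEC and at 196, 1054 and 448 FPKM in lines 199, 233 and 336. The groups overlapped, since line 233 was above MEC 3 and kept 91.1% of the MEC mean, while line 199 held 17.0%. The log2 fold change was -1.32 (SE 0.59, 95% interval -2.74 to 0.09, limma adjusted p = 0.202), and it was -0.72 without line 199 (limma adjusted p = 0.286). The interval holds both no difference and a decrease as large as that of *Krt8*.

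Among type I genes, *Krt18*, the usual partner of *Krt8*, was the highest keratin in each MEC library, at 3041, 3593 and 2240 FPKM. It was at 197, 1181 and 586 FPKM in lines 199, 233 and 336, or 6.65%, 39.9% and 19.8% of the MEC mean. The groups did not overlap, but the lines differed among themselves by more than they did for *Krt8*, with a mean of 654 ± 496 FPKM (SD, n = 3) against 2958 ± 680 FPKM in MEC. The log2 fold change of -2.49 (SE 0.62, 95% interval -4.00 to -0.99) did not pass the test (limma adjusted p = 0.055). It passed without line 199 (-1.80, limma adjusted p = 0.0279), without line 233 (-3.09, limma adjusted p = 0.0283) and with sample weights (-2.18, limma adjusted p = 0.0149).

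*Krt19*, the smallest keratin and a marker of luminal cells, differed most between the groups among these 5 genes. It was at 804, 1057 and 356 FPKM in MEC and at 7.93, 26.8 and 17.6 FPKM in lines 199, 233 and 336. The lines held 1.07%, 3.63% and 2.38% of the MEC mean, and the group means of 739 ± 355 and 17.4 ± 9.44 FPKM (SD, n = 3 each) differed 42.3-fold. The log2 fold change was -5.34 (SE 0.54, limma adjusted p = 0.00382), and the gene was called under each of the 13 alternatives tried, among them the fit without line 199 (-4.89, limma adjusted p = 0.00375). By level, *Krt19* ranked 57 to 204 among all entries in MEC and 3287 to 7419 in MEKO.

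*Krt20*, the third type I gene, was near the bottom of the range that was tested. It was at 1.62, 2.96 and 1.40 FPKM in MEC and at 0.0952, 1.08 and 1.41 FPKM in lines 199, 233 and 336. Line 336 was level with MEC 3 and the groups overlapped (log2 fold change -0.72, SE 0.39, limma adjusted p = 0.271, and -0.38 without line 199). The gene passed the filter of a mean of 1 FPKM through its MEC values, since the MEKO mean was 0.864 FPKM. Of 9 genes known from the epithelia in which Krt20 is best known, 1 passed the filter and none was called, and *Atoh1*, the regulator of Merkel and gut secretory cells, was listed at 0 in all 6 libraries. The 1 tested, *Upk1b*, passed through its MEC values, with means of 2.11 FPKM in MEC and 0.196 FPKM in MEKO. All lines lay below all MEC libraries for *Upk1b*. It was called lower with sample weights (11.1% of all tested entries lower) and without MEC 3 (3.13%).

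**Figure D2:**
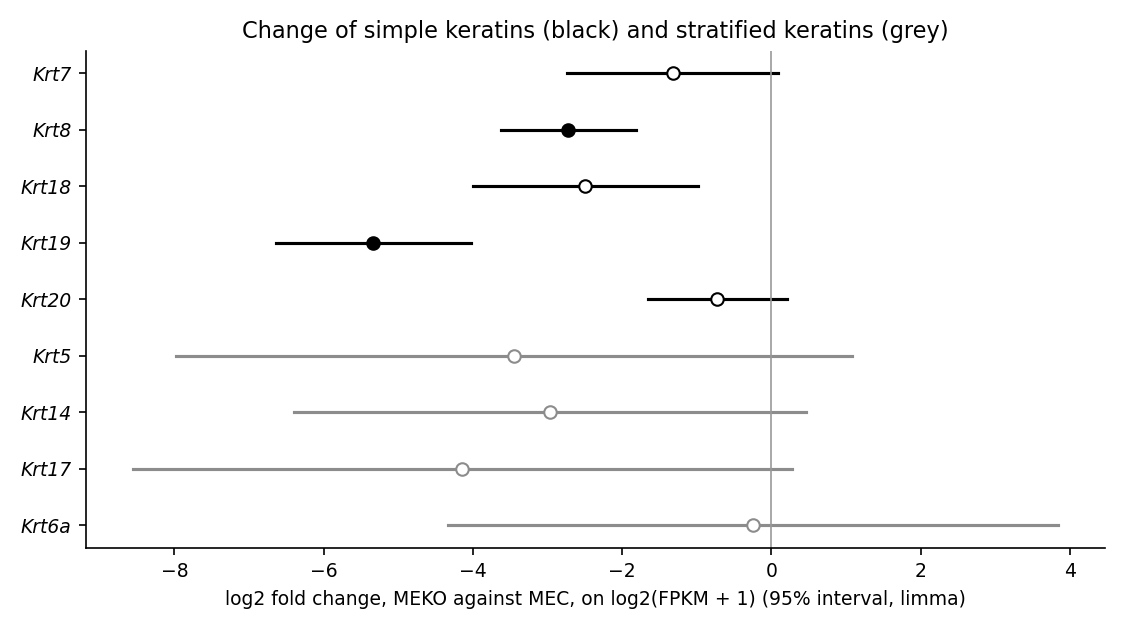
Log2 fold change of MEKO against MEC on log2(FPKM + 1), with 95% intervals from limma, for the 5 simple keratins (black) and 4 stratified keratins (grey). Filled points passed the test. Krt8 and Krt19 are filled, at -2.72 and -5.34, and the intervals of the stratified keratins span 0.

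The order of levels was the same in the 3 MEC libraries, with *Krt18* highest and then *Krt8*, *Krt7*, *Krt19* and *Krt20*. Over the group the ranges of *Krt18* and *Krt8* overlapped, as did those of *Krt7* and *Krt19*, although within each library the order held. The log2 ratio of *Krt8* to *Krt18* in MEC was -0.20 ± 0.11 and that of *Krt7* to *Krt19* was 0.76 ± 0.47 (SD, n = 3 each). In MEKO the upper end of the order differed between lines. *Krt8* was the highest in line 199 (230.1 FPKM, with *Krt18* at 197 and *Krt7* at 196 FPKM), whereas *Krt18* was the highest in lines 233 and 336. *Krt19* was next to last and *Krt20* last in every line. For *Krt7*, *Krt8*, *Krt18* and *Krt19*, line 233 was the highest of the lines and line 199 the lowest.

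Because type II and type I proteins pair in equal amounts, their summed mRNA was compared within each library. Keratin protein was not measured in these libraries. FPKM compared between genes also depends on the transcript models used. The GENCODE transcript of *Krt7* has 4094 bases, and those of the others have 1437 to 1958. The part of transcript models in the ratios was not tested. In MEC the sum of *Krt7* and *Krt8* was 1.00, 1.01 and 1.03 times that of *Krt18*, *Krt19* and *Krt20* in MEC 1, 2 and 3. In lines 199, 233 and 336 it was 2.08, 1.32 and 1.48 times. All lines were thus above all MEC libraries, and the log2 ratio differed by 0.65 between groups (0.03 ± 0.02 in MEC and 0.67 ± 0.34 in MEKO, SD, n = 3 each; two-sided exact permutation test, p = 0.1). Groups that do not overlap in either direction were seen for 37.2% of single entries. The difference was 0.46 without line 199. Over all keratin genes the type II to type I ratio was 0.926, 0.925 and 0.937 in MEC and 1.17, 1.33 and 1.44 in lines 199, 233 and 336, again without overlap (exact permutation test, two-sided, p = 0.1).

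**Figure D3:**
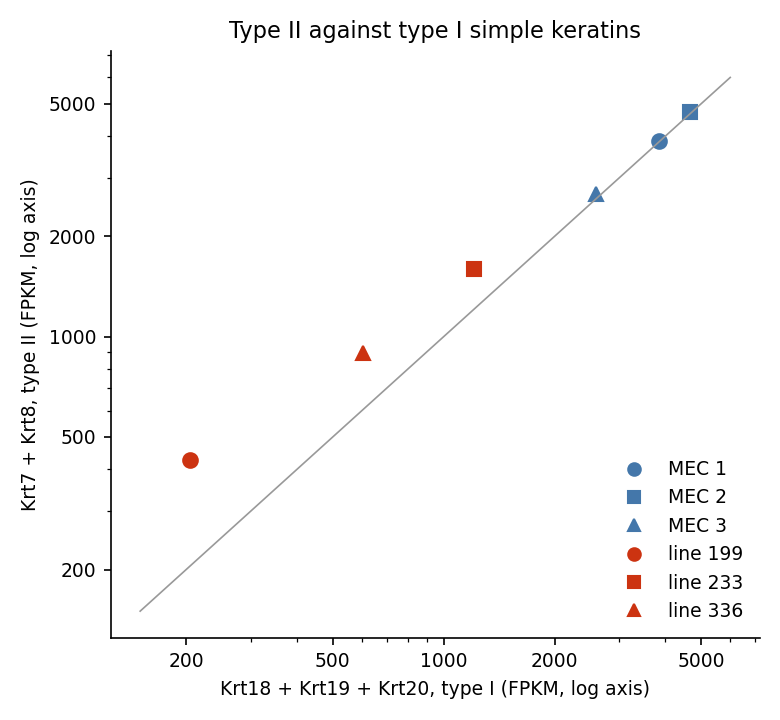
Summed FPKM of the type II simple keratins against that of the type I simple keratins, 1 point per library on log axes, with the grey line at equal levels. The MEC libraries lie on the line (ratios 1.00 to 1.03) and the MEKO lines lie above it, with line 199 farthest (2.08).

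The make-up of each type differed as well. *Krt7* made up 34.1%, 27.8% and 31.4% of type II simple keratin FPKM in MEC and 46.0%, 66.2% and 50.1% in lines 199, 233 and 336. *Krt19* made up 20.9%, 22.7% and 13.7% of type I simple keratin FPKM in MEC and 3.88%, 2.22% and 2.91% in the lines. In both measures the groups did not overlap (exact permutation test, two-sided, p = 0.1 each). The type I pool of the lines was thus almost wholly *Krt18*, at 96.1% to 97.7%, against 77.2% to 86.2% in MEC.

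Ratios between genes within a library were compared for the 6 pairs of *Krt7*, *Krt8*, *Krt18* and *Krt19*. The *Krt8* to *Krt18* ratio, that of the classical partners, was 0.838, 0.948 and 0.823 in MEC and 1.17, 0.456 and 0.763 in lines 199, 233 and 336. The lines fell on both sides of MEC, and the difference in log2 ratio was -0.23 (exact permutation test, two-sided, p = 0.7), or 0.12 without line 233 and -0.56 without line 199. The MEC libraries kept this ratio within an SD of 0.11 on the log2 scale and the lines within 0.68. The other 5 pairs did not overlap between groups, each with p = 0.1 by the exact permutation test (0.12 after Benjamini-Hochberg adjustment over the 6 pairs). The 6 ratios reuse the same few genes and are not independent, and every ratio to *Krt19* shares its lower level. Groups without overlap were seen for 37.2% of single entries, and no share was computed for ratios of other genes. *Krt7* to *Krt18* was 0.433, 0.364 and 0.377 in MEC and 0.999, 0.892 and 0.765 in the lines. *Krt7* to *Krt8* was 0.517, 0.384 and 0.458 in MEC and 0.853, 1.95 and 1.00 in the lines. *Krt19* was lower against each of the others, with differences in log2 ratio of 2.71 for *Krt8* to *Krt19*, 2.94 for *Krt18* to *Krt19* and 4.11 for *Krt7* to *Krt19*.

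**Figure D4:**
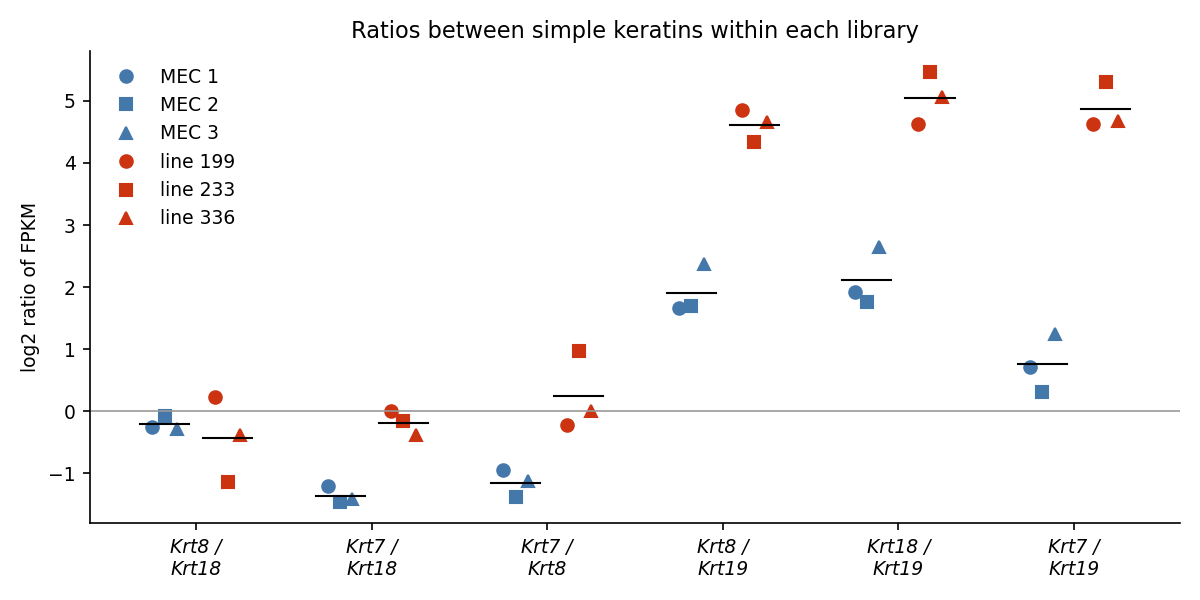
Log2 ratio of FPKM between pairs of simple keratins within each library, with MEC in blue, MEKO lines in red and group means as black lines (n = 3 each). Only Krt8 to Krt18 overlaps between the groups, with line 199 above MEC and lines 233 and 336 below; the 3 ratios to Krt19 differ by 2.71 to 4.11.

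The rest of the keratin family separated line 199 from the other lines. Of 51 keratin genes, 14 were tested and 3 were called lower, against 7.26% of all tested entries. They were *Krt8*, *Krt19* and *Krt4* (a keratin of mucosal epithelia, log2 fold change -2.99, limma adjusted p = 0.00628). None of the 8 tested members of a list of 11 stratified keratins was called in either direction, with a median log2 fold change of -0.33 (0.01 over all tested entries). *Krt5*, a basal cell keratin, was at 435, 339 and 201 FPKM in MEC and at 608, 1.33 and 15.3 FPKM in lines 199, 233 and 336. Its partner *Krt14* was at 460, 393 and 289 FPKM in MEC and at 521, 7.36 and 24.0 FPKM in the lines. *Krt6a*, a keratin of wounded and stressed epidermis, was at 33.0, 38.8 and 5.70 FPKM in MEC and at 223, 1.02 and 11.1 FPKM in the lines. Line 199 thus exceeded every MEC library for these 3 genes, and the lines 233 and 336 were below MEC for *Krt5* and *Krt14*. Without line 199, 4 of 8 stratified keratins were called lower (*Krt5*, *Krt14*, *Krt17* and *Krt23*), against 11.2% of all tested entries. The 8 tested in that fit differ from those of the main fit, in which *Krt23* was not tested. *Krt23* passed the filter there through its MEC values, so it could not have been called higher. It was at 1.34 to 2.47 FPKM in MEC and at 0.0424 and 0.0527 FPKM in lines 233 and 336.

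Simple keratins made up 84.4%, 87.1% and 87.5% of all keratin FPKM in MEC and 25.7%, 98.7% and 94.3% in lines 199, 233 and 336. Line 199 was far below MEC and the other lines were above it, so the group difference of -13.4 percentage points (exact permutation test, two-sided, p = 1) became 10.2 percentage points without line 199. In line 199 *Krt17*, a type I keratin of hair follicles and wounded skin, was at 394 FPKM, 2.01 times as high as *Krt18*. In MEC *Krt17* was at 228 to 537 FPKM, a range that holds the level of line 199. It was 0.102 to 0.15 times as high as *Krt18* there. The 9 basal or myoepithelial markers, *Krt5* and *Krt14* included, had the same order of lines, summing to 1703 to 3120 FPKM in MEC, 2067 FPKM in line 199 and 11.3 and 46.6 FPKM in lines 233 and 336. *Myh11*, a smooth muscle myosin also made by myoepithelial cells, was at 22.4 to 41.8 FPKM in MEC and at 0.0812, 0.0148 and 0.0382 FPKM in the lines. The rest of the list was mixed in line 199. *Trp63* was at 15.6 FPKM there (7.94 to 11.3 FPKM in MEC) and *Acta2* at 719 FPKM (736 to 1452 FPKM). *Tagln* was at 184 FPKM (361 to 792 FPKM) and *Cnn1* at 16.8 FPKM (47.6 to 75.0 FPKM). *Mylk* was at 0.714 FPKM (7.96 to 12.0 FPKM) and *Oxtr* at 0.0125 FPKM (5.05 to 25.9 FPKM). The part of basal cells in these shares was not tested.

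**Figure D5:**
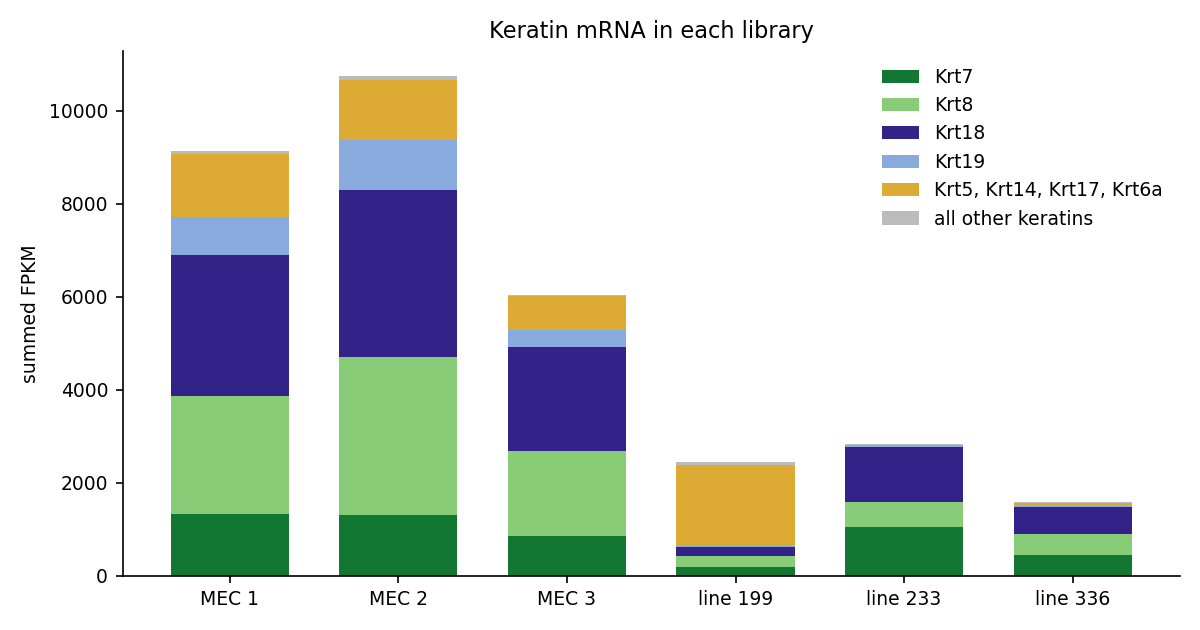
Summed FPKM of all keratin genes in each library, stacked by gene, on an axis from 0. MEC hold 6043 to 10757 FPKM, mostly Krt8 and Krt18, and the lines 1591 to 2839 FPKM, which is mostly stratified keratin in line 199 and almost all simple keratin in lines 233 and 336.

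Most luminal markers were lower along with the simple keratins. Of 19 luminal markers, 18 were tested, 13 were called lower and none higher, against 7.26% and 2.64% of all tested entries. The summed level of the 19 was 4839 to 6279 FPKM in MEC and 958 to 1961 FPKM in MEKO. *Csn3*, a milk casein, was at 1068 to 1871 FPKM in MEC and at 0.0209, 0.339 and 0.282 FPKM in lines 199, 233 and 336. *Kit*, a receptor of luminal progenitors, was at 9.90 to 14.9 FPKM in MEC and was listed at 0 in lines 199 and 233 and at 0.129 FPKM in line 336. *Pgr*, the progesterone receptor, was at 8.06 to 10.8 FPKM in MEC and listed at 0 in all 3 lines. *Csn3*, *Kit* and *Pgr*, and also *Elf5* and *Prom1*, passed the filter of a mean of 1 FPKM through their MEC values. Their MEKO means were 0 to 0.338 FPKM, so they could not have been called higher. *Wfdc18*, *Aldh1a3* and *Ltf* were also called lower (log2 fold changes -9.02, -5.70 and -4.14, limma adjusted p at most 0.0162). *Epcam* and *Cdh1* were called lower too, with log2 fold changes of -1.68 and -1.66. The call of *Epcam* was lost without MEC 1, 2 or 3 (limma adjusted p = 0.0748, 0.0704 and 0.067). The number of luminal markers called lower was 8 without MEC 1 (1.7% of all tested entries) and without MEC 2 (1.98%), with *Ltf* among those lost. The 5 tested markers that were not called were *Esr1*, *Cd24a*, *Cldn3*, *Cldn4* and *Cldn7*. *Esr1*, the estrogen receptor, was at 2.35 to 3.08 FPKM in MEC and 1.56 to 3.56 FPKM in MEKO (log2 fold change -0.02). The groups also overlapped for *Cd24a*, *Cldn3* and *Cldn4* (-0.68, -0.56 and -0.71) but not for *Cldn7* (-0.82). Lower markers were not confined to the luminal list. Of the 9 basal or myoepithelial markers, all tested, 3 were called lower (*Myh11*, *Mylk* and *Oxtr*) and none higher. These 3 passed the filter through their MEC values. Without line 199, 8 of 9 basal, 14 of 19 luminal and 5 of 6 tested fibroblast markers were called lower. In that fit 11.2% of all tested entries were called lower. The part of these wider differences in the keratin values was not tested.

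Transcription factors tied to simple keratin promoters or luminal cells were counted on a list of 26, of which 23 were tested. Of these, 7 were called lower and 1 higher, against 7.26% and 2.64% of all tested entries. *Elf5*, an ETS family regulator of luminal alveolar cells, was at 31.5, 32.8 and 44.3 FPKM in MEC and at 0.0199, 0 and 0.461 FPKM in lines 199, 233 and 336 (log2 fold change -5.01, limma adjusted p = 0.000645). It passed the filter through its MEC values. *Jun*, the AP-1 subunit that JNK phosphorylates, was at 53.1, 58.9 and 60.3 FPKM in MEC and at 10.5, 8.91 and 8.15 FPKM in the lines (-2.53, limma adjusted p = 0.000927). Its partner *Fos* was also called lower (-2.19, limma adjusted p = 0.00903). *Gata3* and *Foxa1*, regulators of luminal identity, were called lower (log2 fold changes -2.53 and -2.49), as were *Ets1* (-1.22) and *Tfap2c*, an AP-2 factor that was at 14.4 to 18.1 FPKM in MEC and at 1.83 to 3.54 FPKM in the lines. *Klf4*, a regulator of epithelial differentiation, was called higher (1.22, limma adjusted p = 0.0487). *Elf5*, *Jun* and *Tfap2c* were called lower with any 1 library left out. The call of *Fos* was lost without MEC 1, that of *Ets1* without MEC 1, 2 or 3, and that of *Foxa1* without MEC 1, MEC 2 or line 233 (limma adjusted p = 0.0516 to 0.0919 over these fits). *Gata3* lost its call without MEC 1, 2 or 3 or line 233, with a pseudocount of 0.1 and with no filter (limma adjusted p = 0.0768 to 0.158). The call of *Klf4* was lost without each of MEC 1, 2 and 3 and lines 199 and 233 (limma adjusted p = 0.073 to 0.162), and also with a pseudocount of 0.1, no filter, a filter at 5 FPKM, upper-quartile scaling or no mean-variance trend (0.0509 to 0.0758).

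Of 17 genes that anchor or bind keratin filaments, 16 were tested, 2 (12.5%) were called lower and none higher, against 7.26% and 2.64% of all tested entries. Their median log2 fold change was -0.41. *Pkp2*, a desmosomal plaque protein, was at 25.5, 31.3 and 32.2 FPKM in MEC and at 13.6, 14.3 and 8.74 FPKM in lines 199, 233 and 336 (log2 fold change -1.24, limma adjusted p = 0.0219). *Pof1b*, an actin-binding protein of epithelial junctions, was called lower as well (-1.85, limma adjusted p = 0.0164). Both calls were lost without MEC 1, without MEC 2 and without MEC 3 (limma adjusted p = 0.0642 to 0.1). *Dsp*, desmoplakin, which ties keratin filaments to desmosomes, was at 36.4, 34.1 and 33.3 FPKM in MEC and at 39.4, 13.2 and 7.33 FPKM in the lines and was not called (limma adjusted p = 0.248). *Sfn*, a 14-3-3 protein that binds keratins, was at 360, 448 and 185 FPKM in MEC and at 109, 5.41 and 14.1 FPKM in the lines (limma adjusted p = 0.0634). Without line 199, 6 of 16 linkers were called lower, *Dsp* and *Sfn* among them, and 1 was called higher, *Ppl*, periplakin of the desmosomal plaque (limma adjusted p = 0.0156). In that fit 11.2% of all tested entries were called lower, and 568 of 12434 were called higher.

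Of 9 other intermediate filament genes, 6 were tested, none was called higher and 1 was called lower, against 7.26% of all tested entries. It was *Nes*, a filament of progenitor cells (log2 fold change -3.50, limma adjusted p = 0.0331). That call was lost without each of MEC 1, 2 and 3 and lines 233 and 336 (limma adjusted p = 0.0651 to 0.124), with a pseudocount of 0.1 (0.0623) and with no filter (0.0594). *Vim*, vimentin of mesenchymal cells, was at 143, 160 and 86.2 FPKM in MEC and at 496, 1.56 and 15.0 FPKM in lines 199, 233 and 336. It was highest in the line in which the simple keratins were lowest, and it was not called (-2.21, limma adjusted p = 0.452), but was called lower without line 199 (limma adjusted p = 0.0204). Markers of endothelial cells, leukocytes and adipocytes had no call among the 3, 1 and 1 tested, and their summed levels were at most 23.5 FPKM in any library. Without MEC 3, and also with sample weights, the endothelial markers *Cdh5* and *Pecam1* and the adipocyte marker *Fabp4* were called lower. In these fits 3.13% and 11.1% of all tested entries were called lower. *Cdh5*, *Pecam1* and *Fabp4* passed the filter through their MEC values, with MEKO means of 0.0644, 0.159 and 0.686 FPKM. For each of them every line was below every MEC library.

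Genes next to the *Krt8* and *Krt18* pair did not all share the difference. *Eif4b*, a translation initiation factor and the nearest tested gene beyond *Krt18*, was at 131, 116 and 139 FPKM in MEC and at 141, 143 and 139 FPKM in lines 199, 233 and 336 (log2 fold change 0.14, SE 0.13). The next, *Spryd3*, had a log2 fold change of -0.19 (SE 0.19). On the other side lay *Krt4*, which was called lower, and *Krt5*. Over 435 genes of chromosome 15 the median log2 ratio to the MEC mean was -0.04, -0.05 and -0.16 in lines 199, 233 and 336, and over 912 genes of chromosome 11 it was -0.07, 0.03 and -0.03.

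The pattern of each simple keratin over the 6 libraries was set beside that of the 12460 other tested entries by Pearson's r of log2(FPKM + 1). These r values describe 6 libraries that share 2 groups. *Krt8* was nearest to *Cda* (r = 0.998), a cytidine deaminase, *Fzd5* (0.995), a WNT receptor, and *Krt19* (0.995). *Krt19* was nearest to *Tspan1* (0.999), a tetraspanin, *Fzd5* (0.998) and *Krt8* (0.995). *Krt18*, in contrast, ranked 116 in likeness to *Krt8* (0.960), and its own nearest entries were *Cfl2* (0.996), *Tnfrsf18* (0.995) and *Ints9* (0.992). *Krt7* was nearest to *Rpl26* (0.994), *Bspry* (0.993) and *Btn1a1* (0.992), with *Krt18* at 0.956. *Krt20* was nearest to *Cyb561d1* (0.995), *Kctd11* (0.988) and *Mgat2* (0.982). *Krt8* thus had *Krt19*, on another chromosome, among its 3 most like entries, while its neighbour and partner *Krt18* was farther down.

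Some values could include reads of similar or overlapping genes. *Krt18* has 3 processed pseudogenes with 83.5% to 90.5% identity to its transcript, and *Krt19* has 78.4% identity to *Krt17* and 77.6% to *Krt14* over part of its length. *Krt7* overlaps the antisense gene *Gm671* and *Krt8* the non-coding gene *Gm36026*, both on the opposite strand, and whether the authors' quantification used strand is not given in the sources used here. How reads were shared among these genes was not tested.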

How the data were processed

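Paired-end reads were trimmed and mapped by the authors to the mouse genome (mm10) with TopHat2 2.0.14 and Bowtie2, and gene levels were estimated with Cufflinks 2.2.1. The deposited table holds FPKM, which the authors normalized for transcript length and library size. Since these values hold no read counts, sequencing depth is unknown and counting intervals or floors could not be given. The summed FPKM was 557991 to 638365 per library, with 17343 to 18741 entries above 0, and low values are the least precise. Of 37755 entries, 2 had no values. Groups came from the labels, which mark the MEC libraries as separate preparations and the MEKO libraries as separate lines and give no batch.

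Entries with a mean of at least 1 FPKM (12461) were fitted as log2(FPKM + 1) by limma 3.58.1 (R 4.3.3), allowing for a mean-variance trend, with p-values adjusted by Benjamini-Hochberg, after the procedure was tested on simulated data. Fold changes are on that scale, which understates the change of low genes. Called genes had an adjusted p under 0.05 and a log2 fold change beyond 0.75, the study's thresholds. This gave 1234 calls (9.9%), and 3509 entries had an unadjusted p under 0.05. The authors' Cuffdiff comparison needs reads and was not repeated. Ratios and sums, 1 value per library, were compared with two-sided exact permutation tests in Python 3.11.15 with scipy 1.17.1. Positions are from GENCODE M21 and upstream sequence from RefSeq.

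The genes and lists were chosen with earlier results of these data known. The text names all 5 simple keratins, the targeted genes, the nearest tested neighbours of a member, the 3 entries most like each, and from each list the called genes of largest change (at most 6) plus genes whose role is needed. Alternatives were a pseudocount of 0.1, no filter, a filter at 5 FPKM, quantile normalization, upper-quartile scaling, no trend, sample weights, no fold threshold, and each library left out in turn.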

Additional observations from a re-analysis of the deposited data

How the results depend on the processing

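The number of called genes was 1234 and became 738 with a filter at 5 FPKM (fewer entries tested), 1978 with sample weights and 259 to 1966 when 1 library was left out, the lowest without MEC 1 and the highest without line 199. Between 1 and 3 simple keratins were called with a library left out, and 2 or 3 otherwise. *Krt8* ranged from -2.97 to -2.36 in log2 fold change with a library left out, and *Krt18* from -3.09 to -1.80 (-2.18 with sample weights). *Krt7* and *Krt20* were not called under any alternative that gave a value. *Krt6a*, not called, ranged from -2.08 to 1.32 with a library left out, and *Cyb561d1*, not called, was at 0.015 after quantile normalization. The type II to type I difference was 1.89 when mean log2(FPKM + 1) values were used in place of sums and *Krt20*, below 1 FPKM in a library, was left out of the type I genes; the part of each of these changes was not tested. The *Krt8* to *Krt18* difference ranged from -0.56 to 0.12 with a library left out. The simple keratin share differed by -26.3 to 10.2 percentage points with a library left out and by 2.52 as a share of summed log2 values. No paired analysis was possible because MEC replicates and MEKO lines share no replicate number. Summing entries per symbol was not run, since each simple keratin has 1 entry, and *Krt20* gave no value with the filter at 5 FPKM. With 3 libraries a group, no permutation test can go below 0.1, and without read numbers the precision of *Krt20* cannot be given.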
